A study of Mus musculus with 14 samples.

Results

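Metallothioneins and the zinc transporters of the liver were examined as a set of 8 genes, Mt1, Mt2, Mtf1, Slc30a1, Slc30a10, Slc39a4, Slc39a8 and Slc39a14, chosen by their symbols among 17552 genes with a read count. All 8 were found, and all 8 had at least 100 counts in the groups together, as did 13291 genes in all. Livers came from male Apoe-deficient C57BL/6 mice, which lack apolipoprotein E and develop fatty liver. The control group received a purified Western diet. The erythrodiol group received the same diet with erythrodiol, a triterpene alcohol of the olive, at a dose of 10 mg per kg of mouse. The labels give an age of 8 weeks and 8 weeks of diet for both groups, whereas the methods of the study give a longer period of feeding. Each group was made of 7 libraries of poly-A RNA, each from an equal-part pool of the RNA of a few mice, so that no library represents a single animal.

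Gene values were given as 1 expected count per gene and group, the sum over the 7 libraries, with a total of 122889032 counts in the control and 124686047 in the erythrodiol group. The spread between libraries of a gene is therefore not known, no difference between the groups could be tested, and none of the 8 genes can be followed in single libraries. Intervals given below are exact 95% intervals from the counts of the pooled groups and cover counting error only. Control libraries had 34856340 to 55244294 clean reads and mapped 64.33% to 81.43% of them to genes, against 47669656 to 48058606 reads and 72.96% to 76.13% in erythrodiol libraries. By these rates a control library supplied 9.12% to 17.3% of its group's counts, and an erythrodiol library 13.9% to 14.6%. Hepatocyte markers were abundant in both groups, with 7 measured genes summing to 104776 counts per 1000000 in the control and 105788 with erythrodiol.

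Metallothioneins are small proteins rich in cysteine that bind zinc and copper and are abundant in liver. When free zinc rises, the zinc-finger factor MTF-1, product of Mtf1, binds metal response elements in the promoters of Mt1, Mt2 and Slc30a1 and increases their transcription. Metallothioneins are also induced by interleukin 6 and by glucocorticoids. Transporters of the ZnT family (Slc30) move zinc out of the cytosol, across the plasma membrane in the case of ZnT1 (Slc30a1), whereas those of the ZIP family (Slc39) bring it in. ZIP14 (Slc39a14) is the ZIP transporter that hepatocytes raise in the acute phase response. ZnT10 (Slc30a10), ZIP8 (Slc39a8) and ZIP14 also carry manganese, the first as its exporter into bile and the other two as importers.

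Promoter windows are shown first as a description of sequence, for Mt1, Mt2 and Slc30a1, named above with MTF-1, and for Slc30a10. The part of these sequences in the group differences was not tested. The core of the metal response element was searched as TGCACNC and TGCGCNC on both strands in RefSeq promoter windows of GRCm38.p6 that run from 250 bases before to 50 bases after each start, and overlapping matches were joined to 1 site. Capitals mark the matches, and positions count from the start, with the first transcribed base as 1. Windows were at hand for 6 of the 8 genes, and Slc39a4 and Slc39a14 were not searched.
Mt1, chr8:94178839-94179088, plus strand, before the start: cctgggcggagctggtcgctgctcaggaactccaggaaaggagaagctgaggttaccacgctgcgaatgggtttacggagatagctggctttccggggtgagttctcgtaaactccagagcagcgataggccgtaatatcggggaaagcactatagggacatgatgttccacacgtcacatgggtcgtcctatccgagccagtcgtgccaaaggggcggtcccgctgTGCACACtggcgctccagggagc
Mt1, chr8:94179089-94179118, plus strand, after the start: tcTGCACTCcgcccgaaaagTGCGCTCggc
Mt2, chr8:94172368-94172617, plus strand, before the start: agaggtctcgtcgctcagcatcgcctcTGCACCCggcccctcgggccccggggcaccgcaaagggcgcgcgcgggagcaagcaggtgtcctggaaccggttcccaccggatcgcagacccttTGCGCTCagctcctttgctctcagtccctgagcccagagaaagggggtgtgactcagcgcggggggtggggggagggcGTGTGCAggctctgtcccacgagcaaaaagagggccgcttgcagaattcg
Mt2, chr8:94172618-94172647, plus strand, after the start: ggtcGTGCGCAggcccaggggcgtgtgctg
Slc30a1, chr1:191906531-191906780, plus strand, before the start: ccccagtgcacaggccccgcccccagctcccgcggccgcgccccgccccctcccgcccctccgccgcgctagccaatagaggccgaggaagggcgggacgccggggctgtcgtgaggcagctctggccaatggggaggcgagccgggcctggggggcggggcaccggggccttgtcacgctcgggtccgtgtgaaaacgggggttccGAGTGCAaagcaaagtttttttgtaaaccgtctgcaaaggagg
Slc30a10, chr1:185454598-185454847, plus strand, before the start: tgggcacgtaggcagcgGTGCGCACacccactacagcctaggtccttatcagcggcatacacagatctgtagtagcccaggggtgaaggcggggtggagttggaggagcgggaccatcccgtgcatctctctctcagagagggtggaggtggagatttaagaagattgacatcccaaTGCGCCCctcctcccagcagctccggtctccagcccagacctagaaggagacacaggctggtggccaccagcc

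Mt2 had 4 sites, at -223, -128, -50 and 5, and Mt1 had 3, at -23, 3 and 21, which together with the lines above shows that the metallothionein sites sat on both sides of the RefSeq start. Of 32851 promoter windows of 27025 genes, 0.295% held at least 4 sites, 1.31% at least 3, 6.14% at least 2 and 25.7% at least 1. These shares were not matched for base composition, and G and C made up 60.7% of the window of Mt1 and 73% of that of Slc30a1. Slc30a1 had 2 sites, at -43 and 31, and Slc30a10 had 2, at -233, where a pair of matches overlapped, and at -73. Mtf1 had none in its window, and of the 2 starts of Slc39a8, 1 had a single site at -19 and the other none. Annotations differ on the starts, and the RefSeq spans of Mt1 and Slc30a1 open within the windows shown, upstream of the start used. GENCODE places the 3 transcripts of Mt1 at 7 bases upstream, 122 and 152 bases downstream of the RefSeq start, and those of Mt2 at 46 and 242 bases downstream. Bases that follow the windows were not searched, among them those just before the Mt1 starts at 122 and 152 and the Mt2 start at 242. The counts of sites are therefore those of the windows and not of whole promoters. A match of these letters describes the sequence and does not show that a factor binds there.

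**Figure D1:**
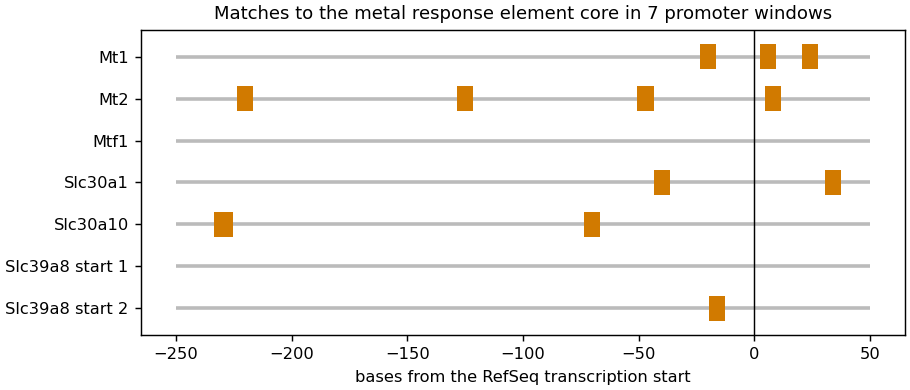
Matches to the metal response element core (orange blocks) in 7 promoter windows of 6 genes, drawn by their distance in bases from the RefSeq transcription start (vertical line); grey lines are the 300 bases searched. Mt2 has 4 sites and Mt1 3, against 2 in Slc30a1 and in Slc30a10, 1 or 0 at the starts of Slc39a8 and 0 in Mtf1.

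The metallothioneins had the highest levels per length of the 8 genes in the control group, and both were lower in the erythrodiol group under every scaling tried. Levels per length are counts per kilobase of transcript per 1000000 counts of the group. Mt1 (GRCm38, chromosome 8, 94178883 to 94180327) had 5951 counts in the control and 3913 in the erythrodiol group, or levels per length of 82.9 and 53.7. Mt2, upstream on the same chromosome from 94172618 to 94173567, had 3630 and 1936 counts, or levels per length of 53.1 and 27.9. The control level was above the erythrodiol level in both genes, and more so in Mt2. Scaled by the total counts, the log2 ratio of erythrodiol to control was -0.63 (interval -0.68 to -0.57) in Mt1, a difference of -35.2%. In Mt2 it was -0.93 (interval -1.01 to -0.85), a difference of -47.4%. Summed over both, 9581 counts stood against 5849, a log2 ratio of -0.73 (interval -0.78 to -0.69). Within the same group, where no scaling between groups enters, there were 1.64 counts of Mt1 for each count of Mt2 in the control and 2.02 in the erythrodiol group. The log2 difference of that ratio was 0.30 (counting interval 0.20 to 0.40), so that the pair did not differ by the same amount.

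Short transcripts as a whole were lower in the erythrodiol group, and the metallothioneins are among the shortest. The median log2 ratio was -0.27 over the 862 genes under 1000 bases, 0.28 over the 3819 genes from 4000 bases and 0.16 over all 13291 genes with at least 100 counts. Each gene was therefore set against its genes of like length, the 3.77% of these genes nearest to it in transcript length. For Mt1, of 584 bases, these genes had a median log2 ratio of -0.32, which leaves -0.30 for Mt1 relative to them, and 25.1% of them were lower than Mt1. For Mt2, of 556 bases, the median was -0.33, which leaves -0.60, and 6.99% of them were lower. Among the 1.51% of genes nearest in both length and count, 17.4% were lower than Mt1 and 2.49% lower than Mt2. The median gene of their length thus had a log2 ratio about as large as what was left of Mt1 and smaller than what was left of Mt2. Both lay within the central 95% of genes of their length. The part of transcript length in the metallothionein values was not tested further.

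**Figure D2:**
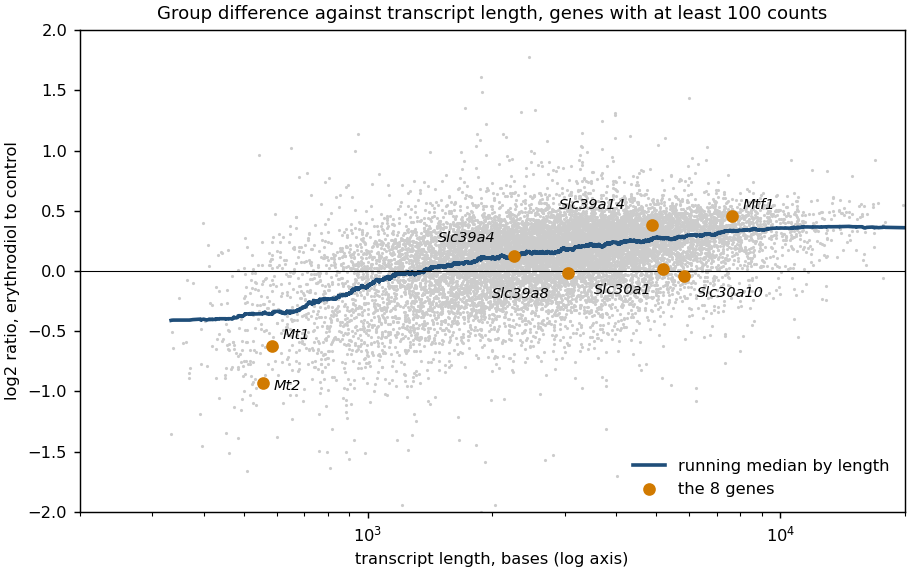
Log2 ratio of erythrodiol to control (vertical axis) against transcript length in bases (log axis) for genes with at least 100 counts (grey, 16 lie outside the axes), with the running median over 3.77% of the genes (blue) and the 8 genes (orange). The running median climbs from below 0 in short transcripts to above 0 in long ones; Mt1 and Mt2 lie below it at the left, and Slc30a1, Slc30a10 and Slc39a8 below it at the right.

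Reads of Mt2 may be shared with another gene. Of the distinct stretches of 100 bases in its GENCODE transcripts, 22.4% are also found, on either strand, in Gm45774, an antisense transcript on the minus strand from 94170748 to 94173412. The library preparation as described does not mark strand, so reads from that stretch cannot be assigned to 1 of the pair, and Gm45774 itself was not analysed here. Mt1 shared no such stretch with any other gene, Mt2 included. The remaining genes of the family added little, since Mt3, the metallothionein of brain, had 0 counts in the control and 1 in the erythrodiol group, where a count of 0 allows up to 3, and Mt4 was not analysed here.

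Mtf1, whose product is the zinc sensor described above, was the least abundant of the 8 and had the highest log2 ratio, but its counts were split with an overlapping gene. Mtf1 lies on chromosome 4 from 124802549 to 124849800 and had 1603.98 counts in the control and 2234.48 in the erythrodiol group, or levels per length of 1.71 and 2.35. The log2 ratio was 0.46 (interval 0.36 to 0.55), against a median of 0.33 in genes near its length of 7631 bases, which leaves 0.13. Of those genes, 80.2% were lower. The counts of Mtf1 were not whole, as was so for 19.2% of all genes but for no other of the 8. The 3′ end of Mtf1 overlaps 1110065P20Rik, a protein-coding gene on the opposite strand from 124849080 to 124851196, with which it shares 6.99% of its stretches of 100 bases. That gene had 1618.02 and 922.52 counts, a log2 ratio of -0.83, in the direction opposite to Mtf1. Added together, the pair came to whole numbers, 3222 in the control and 3157 in the erythrodiol group, with a log2 ratio of -0.05 (interval -0.12 to 0.02). How many of the shared reads belong to Mtf1 cannot be told apart from the group sums. The value of -0.05 is the extreme case in which every read of 1110065P20Rik is counted to Mtf1, and its interval includes no difference. Divisions between that case and the given counts were not tried. In the control group Mt1 had 3.71 counts for each count given to Mtf1, and 1.75 in the erythrodiol group. That ratio is not free of length, since genes of like length had a median log2 ratio of -0.32 for Mt1 and 0.33 for Mtf1.

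The exporters had nearly equal counts in the groups, which placed them low among genes of their length. Slc30a1, the plasma membrane zinc exporter, lies on chromosome 1 from 191906697 to 191913248 and had 4918 counts in the control and 5046 in the erythrodiol group, or levels per length of 7.72 and 7.80. Its log2 ratio was 0.02 (interval -0.04 to 0.07), and it became -0.15 when scaled to the median of all genes. Slc30a10, the manganese exporter, lies on the same chromosome from 185454848 to 185468762 and had 4918 and 4859 counts, or levels per length of 6.86 and 6.68, with a log2 ratio of -0.04 (interval -0.10 to 0.02). Both intervals included no difference. Genes near the length of Slc30a1, 5187 bases, had a median of 0.28, so that Slc30a1 stood at -0.26 relative to them with 16.0% of them lower. Genes near the length of Slc30a10, 5836 bases, had a median of 0.29, so that Slc30a10 stood at -0.32 with 9.78% of them lower. When the genes were also near in count, 4.98% were lower than Slc30a1 and 1.49% lower than Slc30a10. Their ratio to each other differed little, with 1.00 counts of Slc30a1 per count of Slc30a10 in the control and 1.04 in the erythrodiol group (log2 difference 0.05, counting interval -0.03 to 0.13). Antisense genes overlap both, 1700034H15Rik over 7.06% of the stretches of Slc30a1 and Gm2061 over 7.56% of those of Slc30a10, and neither was analysed here.

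Of the importers, Slc39a14 was higher with erythrodiol under every scaling tried, whereas Slc39a4 and Slc39a8 were so close in the groups that their direction depended on the scaling. Slc39a14, on chromosome 14 from 70303467 to 70351452, had the most reads of the 8 genes, 20818 counts in the control and 27533 in the erythrodiol group, or levels per length of 34.8 and 45.3. The log2 ratio was 0.38 (interval 0.36 to 0.41), a difference of 30.3%. Genes near its length of 4873 bases had a median of 0.26, which leaves 0.13, and 79.0% of them were lower. In the order of levels per length it stood after Mt1 and Mt2 in the control group and between them in the erythrodiol group. Slc39a14 shared no stretch of 100 bases with another gene.

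Slc39a4 encodes ZIP4, the zinc importer of the intestinal border that is mutated in acrodermatitis enteropathica. It lies on chromosome 15 from 76612383 to 76618506 and had 5730 and 6332 counts in the control and erythrodiol groups, respectively, or levels per length of 20.7 and 22.5. Its log2 ratio was 0.12 (interval 0.07 to 0.17), which became -0.04 when scaled to the median of all genes, and it stood 0.01 above genes near its length of 2254 bases. Slc39a8, on chromosome 3 from 135816882 to 135888572, had 3251 and 3259 counts, or levels per length of 8.66 and 8.55. With a log2 ratio of -0.02 (interval -0.09 to 0.05) it stood -0.20 relative to genes near its length of 3056 bases, of which 21.2% were lower. The importers of manganese thus did not share 1 value. For each count of Slc39a8 there were 6.40 counts of Slc39a14 in the control and 8.45 in the erythrodiol group, a log2 difference of 0.40. Between Slc39a14 and the manganese exporter Slc30a10 the ratio of counts was 4.23 in the control and 5.67 in the erythrodiol group, a log2 difference of 0.42, and between Slc39a14 and Slc30a1 it was 4.23 and 5.46. These ratios are free of the scaling between groups, although not of length, which is similar for Slc39a14, Slc30a1 and Slc30a10.

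**Figure D3:**
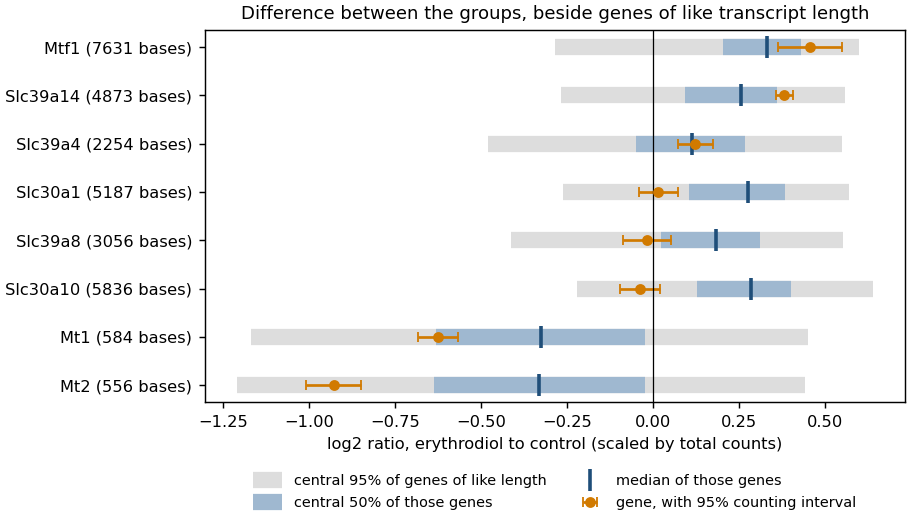
Log2 ratio of erythrodiol to control for each of the 8 genes (orange points, with 95% counting intervals) beside the median (dark bar), central 50% (blue) and central 95% (grey) of genes of like length. None of the 8 lies outside the grey band; Mt2, Slc30a1, Slc30a10 and Slc39a8 lie below the blue band, Mtf1 and Slc39a14 above it.

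Taking the 8 genes as a set, their median log2 ratio was -0.000637, below the 0.16 of all genes, and -0.23 relative to genes of like length, with 5 genes below and 3 above. At a limit of 1.5-fold, 2 of the 8 were lower in the erythrodiol group, Mt1 and Mt2, where 3.14% of all genes were, and 0 were higher, where 2.55% were. Relative to genes of like length only Mt2 was lower by that limit, where 3.52% of all genes were, and 0 were higher, where 1.02% were. At 2-fold, 0 were lower (0.549% of all genes) and 0 higher (0.218% of all genes). The counting interval lay wholly above no difference in 3 of the 8, Slc39a14, Slc39a4 and, before it is summed with its neighbour, Mtf1, while it did so in 54.6% of all genes. It lay wholly below in 2, Mt1 and Mt2, while it did so in 17.4% of all genes. Against the genes of like length, 6 of the 8 lay outside the central 50% and 0 outside the central 95%. Among genes nearest in both length and count, 2.49% were lower than Mt2 and 1.49% lower than Slc30a10. Both thus fell just outside the central 95% of that set. Levels per length ran in the control group from Mt1 through Mt2, Slc39a14, Slc39a4, Slc39a8, Slc30a1 and Slc30a10 to Mtf1. With 1 value per group, whether neighbours in this order differ beyond the spread of libraries cannot be told.

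The other members of both transporter families were read as background to the 8 genes. Of the 16 with at least 100 counts, the counting interval was wholly above no difference in 9, where 54.6% of all genes were. It was wholly below in 1, where 17.4% of all genes were. The median log2 ratio of the 16 was 0.13, or -0.0022 relative to genes of like length. By level per length they were led by Slc39a1, a ZIP of the plasma membrane, with 36.0 in the control and 33.8 in the erythrodiol group, and Slc39a7, the ZIP of the endoplasmic reticulum and Golgi, with 27.9 and 31.5. Slc39a1, with 10359 and 9879 counts and a log2 ratio of -0.09, was the single gene with an interval wholly below. Slc39a2, a ZIP of low level with 0.529 and 0.953 per length, was the single gene past 1.5-fold, with a log2 ratio of 0.85 (interval 0.51 to 1.20).

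Among the other exporters, levels per length in the control and erythrodiol groups were 16.1 and 16.9 for Slc30a9, 12.4 and 14.1 for Slc30a5, 5.45 and 6.00 for Slc30a6, 3.80 and 3.91 for Slc30a7, 2.79 and 2.83 for Slc30a4 and 0.598 and 0.666 for Slc30a3. Slc30a5 and Slc30a6 encode the exporters of the early secretory pathway that load zinc onto enzymes, Slc30a7 also works there, and Slc30a4 acts in vesicles. Among the other importers, levels per length were 10.5 and 13.0 for Slc39a9, 9.97 and 10.0 for Slc39a11, 4.46 and 5.18 for Slc39a13, 2.35 and 2.55 for Slc39a3, 1.13 and 1.03 for Slc39a10, 0.690 and 0.832 for Slc39a6 and 0.369 and 0.402 for Slc39a5. None of these 13 was past 1.5-fold, and the highest log2 ratio among them was that of Slc39a9, 0.31 (interval 0.26 to 0.36), or 0.03 relative to genes of like length. Slc30a2, Slc39a12 and Slc30a8, the last an exporter of pancreatic islets, were barely detected, with 14 and 28, 16 and 7, and 3 and 2 counts. Over the 8 ZnT genes with at least 100 counts, 3 had an interval above and 0 below no difference, with a median log2 ratio of 0.06 that turned negative when scaled to all genes (-0.11), to genes of like length (-0.19) or without the 50 highest genes (-0.04). Over the 13 such ZIP genes, 8 were above and 1 below. Their median of 0.12 turned to -0.04 when scaled to the median of all genes. Of all genes, 54.6% were above and 17.4% below.

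**Figure D4:**
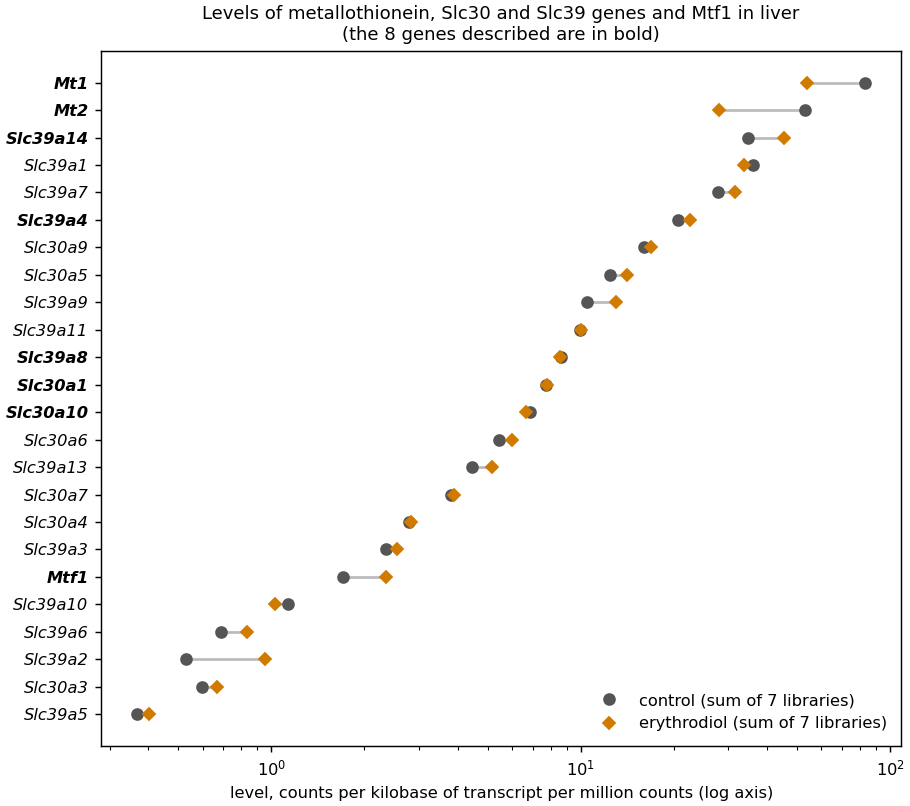
Level of each metallothionein, Slc30 and Slc39 gene and of Mtf1 with at least 100 counts, in counts per kilobase of transcript per 1000000 counts (log axis), in the control (grey circles) and erythrodiol group (orange diamonds); each point is the sum of 7 libraries and has no replicate error. Mt1 stands at 82.9 in the control and 53.7 with erythrodiol and Mt2 at 53.1 and 27.9, while Slc39a14 stands at 34.8 and 45.3 and most other genes nearly coincide.

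Lists of genes that share a regulator or a metal with the 8 were then described. Of 7 MTF-1 targets with at least 100 counts, 3 had intervals above and 2, Mt1 and Mt2, below no difference, with a median log2 ratio of 0.02 that was negative under 3 of the 4 other scalings. The highest was Gclc, the catalytic subunit of glutathione synthesis, with 47238 and 60803 counts and a log2 ratio of 0.34. Relative to genes of like length, 5 of the 7 targets were below and 2 above, with a median of -0.26. The list does not separate targets by the direction in which MTF-1 acts on them, and the part of MTF-1 in these values was not tested. Of 12 copper genes, 7 were above and 3 below, with a median of 0.12 that became -0.04 when scaled to all genes, from Commd1, a copper homeostasis gene of short transcript, at -0.74 to Atp7b, the exporter of copper into bile, at 0.40. Of 6 manganese genes, 3 were above and 1 below, with a median of 0.06 that was negative under 3 of the 4 other scalings, from Tmem165, a Golgi manganese transporter, at -0.30 to Slc39a14 at 0.38. Of 12 zinc enzymes of the liver, 9 were above and 2 below, with a median of 0.20, from Bhmt, betaine-homocysteine methyltransferase, at -0.32 to Alpl, alkaline phosphatase, at 0.52. The median of all genes, 0.16, is the value to hold beside these medians. Of all genes, 54.6% had intervals above and 17.4% below no difference.

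Genes that answer to the known inducers of metallothioneins differed in direction. Of all genes, 17.4% had intervals below and 54.6% above no difference, and 0.549% were past 2-fold lower. Of 16 genes of the interleukin 6 acute phase response, 12 had intervals below and 3 above no difference, and 3 were past 2-fold lower. Their median log2 ratio was -0.44, or -0.44 also relative to genes of like length. They ran from Saa1, a serum amyloid A, with 52221 and 22566 counts and a log2 ratio of -1.23, to Il6ra, the interleukin 6 receptor, at 0.53, and their summed level was 22171 counts per 1000000 in the control and 16475 with erythrodiol. Slc39a14, an acute phase transporter, had a log2 ratio of the opposite sign to Mt1, Mt2 and the 12 genes below, and of the same sign as the 3 above, Il6ra, the shared receptor subunit Il6st at 0.44 and the transcription factor Stat3 at 0.37. Relative to genes of like length, Il6ra stood at 0.33, Il6st at 0.17 and Stat3 at 0.12. Il6st and Stat3 were named after their values were seen. Of 9 genes of the glucocorticoid response, 8 were above and 0 below, where 54.6% of all genes were above, with a median of 0.29 that was 0.10 relative to genes of like length and 0.13 scaled to the median of all genes, from Zbtb16 at -0.07 to Per1, a clock gene, at 0.67. Of 8 oxidative stress genes, 4 were above and 2 below, with a median of 0.06 that was negative under 3 of the 4 other scalings, from Slc7a11, the cystine importer, at -0.41 to Gclc. The part of any of these in the metallothionein difference was not tested.

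Of the markers of other liver cells, those of Kupffer cells and the neutrophil markers with enough counts were lower in the erythrodiol group, as the metallothioneins were, and those of bile ducts were so in part. All 7 Kupffer cell markers had intervals below no difference, where 17.4% of all genes did. The Kupffer cell markers ran from Marco at -1.07 to Csf1r at -0.17, with a median of -0.65. Their summed levels were 957.0 and 612.7 counts per 1000000. The 3 neutrophil markers with at least 100 counts were also below, from Prtn3 at -3.18 to S100a9 at -1.11, and the 8 on the list summed to 13.2 and 4.88 counts per 1000000. Bile duct markers were below in 3 of 5, from Krt19 at -0.89 to Sox9 at -0.09, with a sum of 116.9 and 79.3. In bulk liver, fewer cells of a type and less RNA per cell cannot be told apart.

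Hepatocyte markers were above in 6 of 7 genes and below in 1, where 54.6% of all genes were above and 17.4% below. The hepatocyte markers ran from Alb at -0.06 to Cps1 at 0.36, with a median of 0.18. Endothelial markers were above in 3 and below in 1 of 6, from Clec4g at -0.26 to Kdr at 0.33, with a median of 0.09 that was negative under 3 of the 4 other scalings. Stellate cell markers were above in 1 and below in 2 of 6, from Dcn at -0.17 to Reln at 0.19, with a median of 0.02 that was negative under the same 3. Pancreatic acinar markers, which mark tissue that can adhere to liver, were below in 2 of 3 with at least 100 counts, from Amy2a5 at -2.48 to Cela2a at -0.14, and the 8 on the list summed to 15.0 and 10.5 counts per 1000000. Members under that minimum differed in direction. Ctrb1 had 8 and 42 counts, a log2 ratio of 2.37 (interval 1.26 to 3.67). Cpa1 had 2 and 15, a log2 ratio of 2.89 (interval 0.78 to 6.06). Lower were Cpb1 at -1.90, Prss2 at -0.93 and Pnlip at -0.16, with intervals that included no difference. These members were named after their values were seen. Neither the neutrophil nor the acinar list had a defining gene at 0 in a group. Their part in the values of the 8 genes was not tested.

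**Figure D5:**
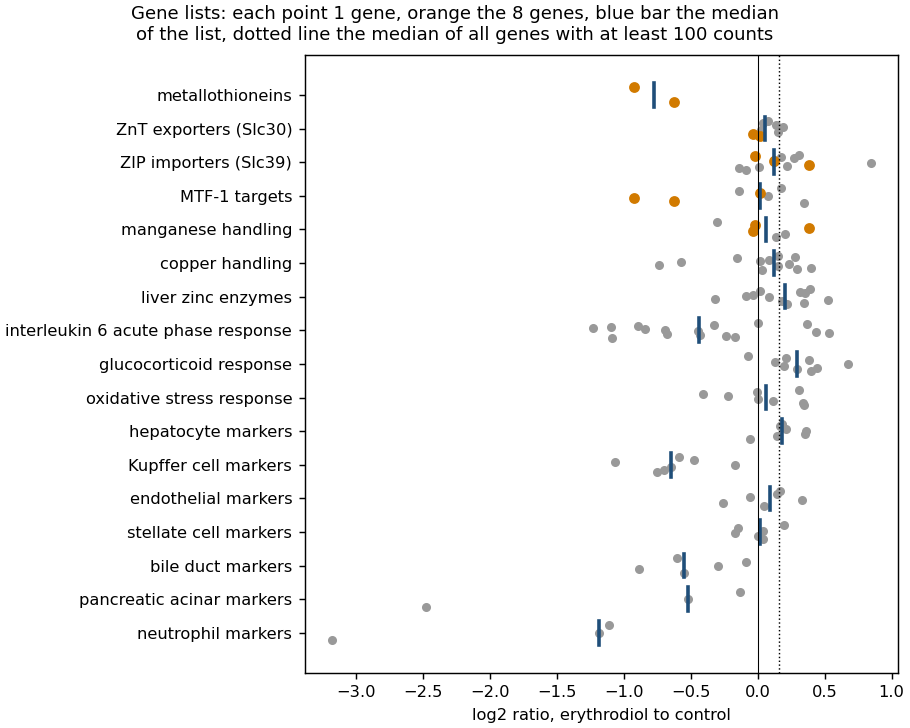
Log2 ratio of erythrodiol to control for genes of 17 lists with at least 100 counts; each point is 1 gene, orange points are among the 8 genes, blue bars are list medians, and the dotted line is the median of all genes, 0.16. The medians of the metallothionein, acute phase, Kupffer cell, bile duct, pancreatic acinar and neutrophil lists lie to the left of 0, and those of the transporters lie between 0 and the dotted line.

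The assembled transcripts added structure for 3 of the 8 genes. New coding transcripts were listed for Slc39a14 (3), Slc39a8 (2) and Slc30a10 (1), and for 28.5% of all genes in the count table, and their levels in the groups were not given. One of Slc39a14 had 10 exons on the minus strand from 70303467 to 70348522 and held side by side the exons from 70315664 to 70315833 and from 70313601 to 70313770, each of 170 bases. Of 13 GENCODE transcripts of the gene, 2 hold the first of these exons exactly, 1 holds the second and 0 hold both, and 2 of the 9 junctions of the new transcript are not in GENCODE. Another transcript of Slc39a14 ran through this region as a single exon of 4978 bases from 70310856 to 70315833. The new transcript of Slc30a10, from 185454848 to 185468762, kept the annotated ends of the gene but had a first exon of 1359 bases, and 1 of its 3 junctions was not annotated. Both new transcripts of Slc39a8 ended early, at 135858963, in last exons of 120 and 156 bases that are not annotated.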

How the data were processed

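Poly-A RNA from 14 liver pools was read by the authors as pairs on a BGISEQ-500. The authors' processing notes name HISAT, StringTie, Cufflinks, GATK, Bowtie2 and RSEM, with no versions. For genes, the authors deposited an RSEM expected count per group, a sum over its libraries that is not normalized, and the transcript length. For libraries, the authors deposited counts of clean reads and the percent mapped to genes. A log2 ratio, p-value and q-value per gene from the authors' own comparison were not used, nor were files of splicing events, SNPs and transcript classes. Coordinates are of GRCm38.

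Group counts were divided by the group total, and log2 ratios of erythrodiol to control were taken with exact Clopper-Pearson intervals at 95%, conditional on the sum of both counts, which were rounded for this purpose. Intervals of ratios between genes used the normal approximation to log counts. With 1 value per group, no test was made. Each gene was compared with the 3.77% of genes nearest in log length, or the 1.51% nearest in log length and log count, among genes with at least 100 counts. Lists are counted over genes with at least 100 counts. The planned list median was over genes with a count in both groups, which differs in sign only for the MTF-1 targets (-0.06 over 8 genes). The computation was tested on simulated data. RefSeq and GENCODE vM21 tables of GRCm38 gave positions, promoters and exons, and the files' gene IDs matched for all 8 genes. Stretches of 100 bases were compared on both strands, and counts within 0.005 of an integer were taken as whole.

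The 8 genes and the lists were chosen with earlier results of these data known. Named are the 8 genes, the other measured genes of their families, and the highest and lowest gene of each other list. Apoe is named as the gene the mice lack, and 1110065P20Rik and the antisense genes were named after their overlap was seen. Apoe, disrupted in all mice, had 9403 counts in the control and 8293 in the erythrodiol group, whereas the study reports a lack of hepatic Apoe expression by RT-PCR. Why the methods differ was not tested. The counts do not check the labels, since a disrupted gene can still give reads. Alternatives were 4 other scalings, a pseudocount of 1, other windows of length and count minimums; a minimum of 1000 counts and the sum of Mtf1 with its neighbour were added after seeing the data. Computation used scipy 1.17.1, pandas 2.3.3, numpy 2.4.6 and matplotlib 3.10.9 under Python 3.11.15.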

Additional observations from a re-analysis of the deposited data

Results flagged for a closer look

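Control replicate 3 mapped 64.33% of its clean reads to genes, apart from the other 6 control libraries, with a gap to the nearest that was 0.588 of the range of the group. Among 7 libraries a gap above 0.568 of the range is unusual, and chance alone gives such a gap in about 1 of 20 groups. The gap was sought in clean reads, percent mapped to genes and percent mapped to 1 place, in both groups. Chance therefore gives at least 1 such gap in the whole search more often than that. The counts of the 8 genes in this library cannot be separated from the group sums, and its part in their values was not tested.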

How the results depend on the processing

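Scaling to the median of all genes, to the total without the 50 highest genes or to the mean of the reference genes Ppib and Tbp lowered every log2 ratio by 0.16 or 0.10, or raised it by 0.14. Mt1 and Mt2 were lower, and Slc39a14 and Mtf1 higher, under each of the 4 other scalings. Of the 3 genes whose intervals included no difference, Slc30a1 turned negative under all scalings but that to Ppib and Tbp, and Slc30a10 and Slc39a8 turned positive under that one (0.098 and 0.12). Slc39a4 became -0.0388 scaled to the median of all genes, and Mtf1 summed with 1110065P20Rik became -0.0503. The median of the 8 genes was -0.163 scaled to the median of all genes, -0.229 to genes of like length, -0.0992 without the 50 highest genes and 0.136 scaled to Ppib and Tbp. Past 1.5-fold were 2 genes, Mt1 and Mt2, which became Mt2 and Mtf1 scaled to Ppib and Tbp and 1 gene, Mt2, scaled to genes of like length. Past 2-fold was 1 gene, Mt2, scaled to the median of all genes, 1 without the 50 highest genes, and otherwise 0. Under the other scalings the share of all genes past these limits was not computed, except at 1.5-fold for genes of like length. Whether these counts exceed such shares is therefore not known. Relative to genes of like length, windows of 1.51% or 7.53% of genes, minimums of 10 or 1000 counts and matching by count kept the sign of all 8 genes, except Slc39a4 at -0.0131 with a minimum of 1000 counts. A pseudocount of 1 moved none of the 8 beyond its counting interval.

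Among the lists, scaling to the median of all genes reversed the medians of the ZIP importers (-0.0398), manganese (-0.104), copper (-0.0432), oxidative stress (-0.104) and endothelial genes (-0.0682). Scaling to genes of like length reversed manganese (-0.152), oxidative stress (-0.0494) and endothelial genes (-0.179), and leaving out the 50 highest genes reversed the same lists (-0.0411, -0.0410 and -0.00483). Under these 3 scalings, in the order given, 2 medians nearer to 0 than their counting error also turned negative, those of the ZnT exporters (-0.105, -0.191 and -0.0419) and of the stellate cell markers (-0.142, -0.210 and -0.0786). The MTF-1 targets reached 0.0736 scaled to Ppib and Tbp and 0.0161 with at least 100 counts. No paired analysis was possible because gene counts were given as 1 sum per group, and for the same reason no library could be left out.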
